A study of Homo sapiens with 4 samples.

Results

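The hypoxia-inducible factor (HIF) system was examined in HEL cells, an established human erythroleukaemia line that carries both red cell and platelet lineage genes, as 10 genes: the HIF subunits HIF1A, EPAS1 and ARNT, the prolyl hydroxylases EGLN1, EGLN2 and EGLN3, and the hypoxia targets BHLHE40, VEGFA, BNIP3 and ANKRD37. They were taken by symbol from a table of read counts for 28103 genes. Of the 10, 9 had counts and passed the filter on low counts, and EGLN2 was listed at 0 in all libraries. Of 4 libraries, 2 came from HEL cells with knockdown of AFF4, labelled AFF4_KD, and were set against 2 from HEL cells labelled Ctrl, with a wild-type genotype. The labels do not give the means or duration of the knockdown. All 4 libraries came from cells grown in RPMI-1640 with serum, and the labels name no change of oxygen, so no hypoxic condition is compared. AFF4 holds together the super elongation complex, through which the kinase P-TEFb reaches paused RNA polymerase II. The labels name 2 RNA kits and 3 sequencers without saying which library went with which. Nor do they say whether replicates were separate cultures, so a p-value reflects only how far these libraries spread, which may be technical.

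A HIF transcription factor is a pair of an oxygen-regulated alpha subunit, HIF1A or EPAS1 (HIF-2 alpha), and the constant beta subunit ARNT. In oxygen the EGLN enzymes hydroxylate prolines of the alpha subunit, the VHL ubiquitin ligase binds the hydroxylated protein, and the proteasome destroys it. Without oxygen the alpha subunit persists, enters the nucleus and binds the hypoxia response element, a short motif with the core ACGTG or GCGTG, at genes for blood vessel growth, glycolysis and mitophagy. This control acts mainly on the protein, so transcript counts of HIF1A and EPAS1 do not report HIF activity. In red cell biology EPAS1 is known for driving erythropoietin production and iron absorption, and EGLN3 is itself a HIF target that feeds back on the pathway.

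Total counts per library were between 14903878 and 19129008, and levels are given as counts scaled to library size (CPM), where 1 CPM stood for 14.9 to 18.7 reads. AFF4, the check of the labels, had 338 and 319 counts in the knockdown libraries and 1650 and 1033 in the Ctrl libraries, a log2 fold change of -2.07 ± 0.19 (SE; adjusted p = 0.0268 by the edgeR quasi-likelihood test). With a stricter filter (at least 5 CPM in at least 2 libraries) its adjusted p was 0.0552. The Ctrl libraries lay much farther apart than the knockdown libraries. A chi-square of replicate counts over its degrees of freedom was 2.49 for the knockdown pair and 43.6 for the Ctrl pair, so both pairs differed by more than sampling noise. Across 13217 genes, which are not independent replicates, Spearman's rho with transcript GC content was 0.41 for the log2 ratio of the knockdown libraries, 0.83 for that of the Ctrl libraries and -0.0045 for the change between the groups. Most of the replicate spread behind the errors below is that of the Ctrl pair. All log2 fold changes are relative to all genes, whose median was -0.0089.

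Of the 9 counted genes, 1 fell in the knockdown and 0 rose at an adjusted p under 0.05 (edgeR quasi-likelihood test with Benjamini-Hochberg adjustment over 13572 genes). That gene was BHLHE40. Over all genes tested 0.641% were called, 0.295% as lower and 0.346% as higher. At an unadjusted p under 0.05, EPAS1 was higher and BHLHE40, VEGFA, BNIP3 and ANKRD37 were lower, against 15% of all genes in either direction, 6.79% higher and 8.19% lower. The knockdown libraries lay outside the range of the Ctrl libraries for 8 of the 9 genes, 2 above and 6 below, against 46.1% of all genes tested. The genes were chosen with earlier results of these data known, so setting them against these shares is not a test. The median log2 fold change of the 9 was -0.25. The count of calls rested on single libraries, at 7 of the 9 without Ctrl 1 and 8 without Ctrl 2, when 44% and 48.4% of all genes were called, and 0 without knockdown 1 or knockdown 2, when 0.331% and 0.366% were. After a GC correction, which removes from each library its trend with transcript GC content, 8 of the 9 were called, all but HIF1A, and so were 27.4% of all genes. In bulk libraries such as these, fewer cells of a type and less RNA per cell cannot be told apart.

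**Figure D1:**
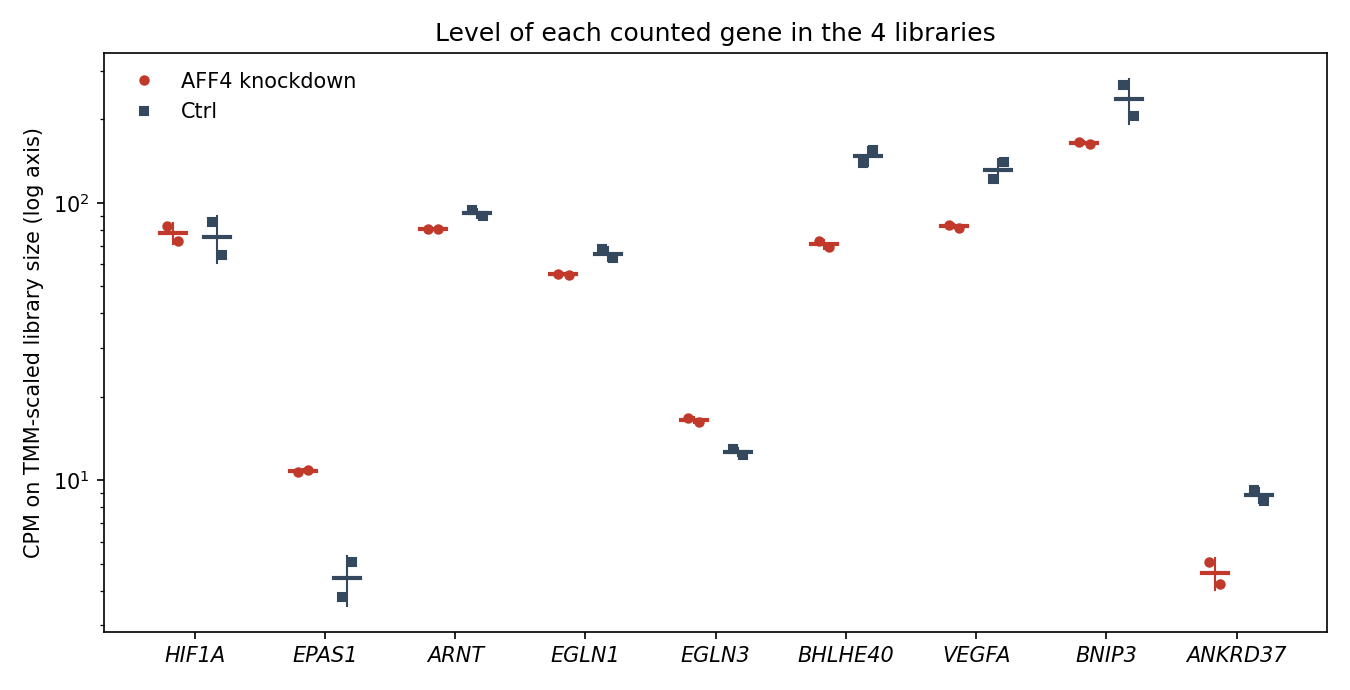
CPM (log axis) of the 9 counted genes in each library, with AFF4 knockdown as circles left of Ctrl as squares; short bars are means and vertical lines ± SD of 2 libraries. EPAS1 and EGLN3 sit higher in the knockdown, HIF1A overlaps, and the other genes sit lower, with BHLHE40 at 72.7 and 69.1 CPM in the knockdown against 139 and 156 CPM in Ctrl.

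The 2 alpha subunits did not stand at the same level in HEL cells. HIF1A (chromosome 14, 61695513 to 61748259, plus strand, hg38) had 82.5 and 73.0 CPM in the knockdown libraries and 85.3 and 65.1 CPM in the Ctrl libraries. The groups overlapped, and the log2 fold change was 0.05 ± 0.18 (SE; adjusted p = 0.941 in edgeR). Its sign depended on the library, at 0.26 without Ctrl 1 and -0.13 without Ctrl 2. HIF1A has the lowest transcript GC content of the 10, at 36.4%, against a median of 48.0% over the tested genes.

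EPAS1 (chromosome 2, 46293667 to 46386703, plus strand), the alpha subunit best known from endothelium and from erythropoietin-producing kidney cells, was scarce. It had 194 and 184 counts in the knockdown libraries and 71 and 76 in the Ctrl libraries, or 10.7 and 10.9 CPM against 3.80 and 5.09 CPM. Both knockdown libraries were above both Ctrl libraries. The difference was the largest among the 9 genes, with a log2 fold change of 1.29 ± 0.23 (SE), and it did not pass the test (edgeR adjusted p = 0.0652; limma-voom 0.0659; DESeq2 0.00702). With 1 library left out it ranged from 1.09 without Ctrl 1 to 1.51 without Ctrl 2 (edgeR).

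Per kilobase of exon, HIF1A still far exceeded EPAS1. HIF1A had 15.1 ± 1.30 RPKM in the knockdown and 14.6 ± 2.78 RPKM in Ctrl, and EPAS1 had 1.48 ± 0.0199 RPKM in the knockdown and 0.609 ± 0.125 RPKM in Ctrl (mean ± SD, n = 2 each; RPKM, the CPM divided by kilobases of annotated exon). EPAS1 made up 8.40% and 9.55% of the summed alpha subunit level in the knockdown libraries and 3.05% and 5.23% in the Ctrl libraries. The shares did not overlap, and in each library HIF1A was the main alpha transcript.

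ARNT (chromosome 1, 150809705 to 150876768, minus strand), the beta partner of both alpha subunits, had 80.6 and 80.2 CPM in the knockdown and 94.2 and 89.6 CPM in Ctrl. The groups did not overlap, but the log2 fold change of -0.19 ± 0.14 (SE) was small and did not pass (edgeR adjusted p = 0.619). Per kilobase, ARNT stood near HIF1A, at 12.3 ± 0.0435 RPKM in the knockdown and 14.1 ± 0.50 RPKM in Ctrl (SD, n = 2 each). The other family members were at or near 0, with the alpha subunit HIF3A listed at 0 in all libraries and the ARNT relative ARNT2 at 2 and 0 counts in the knockdown libraries and 1 and 0 in the Ctrl libraries.

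Among the prolyl hydroxylases, EGLN1 and EGLN3 lay on opposite sides of Ctrl and neither passed the test. EGLN1 (PHD2; chromosome 1, 231363751 to 231425044, minus strand), the main oxygen sensor acting on HIF1A in most cells, had 55.4 and 55.1 CPM in the knockdown libraries and 68.3 and 63.1 CPM in the Ctrl libraries. Its log2 fold change was -0.25 ± 0.16 (SE; adjusted p = 0.527 in edgeR). EGLN3 (PHD3; chromosome 14, 33924231 to 34462774, minus strand), the hypoxia-inducible form, had 16.8 and 16.2 CPM in the knockdown and 13.0 and 12.4 CPM in Ctrl, which is 0.38 ± 0.18 on the log2 scale (SE; adjusted p = 0.402 in edgeR). Of the summed EGLN1 and EGLN3 level per kilobase, EGLN3 made up 23.0% and 22.5% in the knockdown libraries and 15.8% and 16.2% in the Ctrl libraries.

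EGLN2 (PHD1; chromosome 19, 40798996 to 40808433, plus strand) could not be measured. It was listed at 0 in every library, and so were RAB4B, its upstream neighbour, and RAB4B-EGLN2, the read-through transcript that joins them. In GENCODE v29, 2012 of the 6577 exonic bases of EGLN2 (30.6%) are shared with RAB4B-EGLN2 on the same strand. The annotation behind the table and its treatment of reads in overlapping genes are not stated in the labels, so the level of EGLN2 in these cells is not known.

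BHLHE40 (DEC1; chromosome 3, 4979116 to 4985323, plus strand), a helix-loop-helix repressor induced by hypoxia and by growth signals and a brake on the circadian clock, fell in the knockdown. It had 1316 and 1164 counts in the knockdown libraries and 2593 and 2323 in the Ctrl libraries. The gap between the groups was several times the spread within either, at 70.9 ± 2.55 CPM in the knockdown and 147 ± 11.8 CPM in Ctrl (mean ± SD, n = 2 each). On the log2 scale the difference was -1.05 ± 0.15 (SE; adjusted p = 0.0414 in edgeR), which put it at rank 61 of 13572 genes by p. DESeq2 and limma-voom called it too (adjusted p = 2.03e-05 and 0.0440). Its call was lost without knockdown 1 (edgeR adjusted p = 0.494), without knockdown 2 (0.808) and with the stricter filter (0.0686), while the log2 fold change stayed between -1.13 and -0.97 with 1 library left out.

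VEGFA (chromosome 6, 43770184 to 43786487, plus strand), the main growth factor of blood vessels, had 83.5 and 81.5 CPM in the knockdown libraries and 122 and 140.2 CPM in the Ctrl libraries. Both knockdown libraries were lower than both Ctrl libraries, with a log2 fold change of -0.67 ± 0.15 (SE). It did not pass edgeR (adjusted p = 0.106) or limma-voom (0.117), and it passed DESeq2 (0.0299).

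BNIP3 (chromosome 10, 131966455 to 131982013, minus strand), a mitochondrial outer membrane receptor for mitophagy, had the highest mean of the 9 in both groups, in CPM and per kilobase, although in Ctrl 2 it stood below BHLHE40 per kilobase (BNIP3 38.6 and BHLHE40 40.5 RPKM). It had 167 and 163 CPM in the knockdown libraries and 266 and 206 CPM in the Ctrl libraries. The Ctrl libraries differed from each other by -0.37 on the log2 scale (Ctrl 2 over Ctrl 1), while the knockdown differed from Ctrl by -0.52 ± 0.16 on that scale (SE; adjusted p = 0.209 in edgeR). Leaving out 1 Ctrl library moved it to -0.32 (without Ctrl 1) or -0.69 (without Ctrl 2). Its size therefore rests on which Ctrl library is used.

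ANKRD37 (chromosome 4, 185396021 to 185400628, plus strand), a small ankyrin repeat protein known mainly as a direct HIF target, was expressed at a low level. It had 92 and 71 counts in the knockdown libraries and 172 and 126 in the Ctrl libraries, or 5.09 and 4.22 CPM against 9.21 and 8.44 CPM. The groups did not overlap, and the log2 fold change of -0.92 ± 0.22 (SE) did not pass the test (edgeR adjusted p = 0.113; limma-voom 0.117; DESeq2 0.129). It passed edgeR with no filter on low counts (adjusted p = 0.0204). ANKRD37 shares 35.2% of its exonic bases with UFSP2 on the opposite strand, and whether the counting used strand is not stated in the labels. UFSP2 itself had 22.9 and 21.3 CPM in the knockdown and 25.5 and 21.0 CPM in Ctrl, which is -0.07 ± 0.19 on the log2 scale (SE; adjusted p = 0.916 in edgeR).

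**Figure D2:**
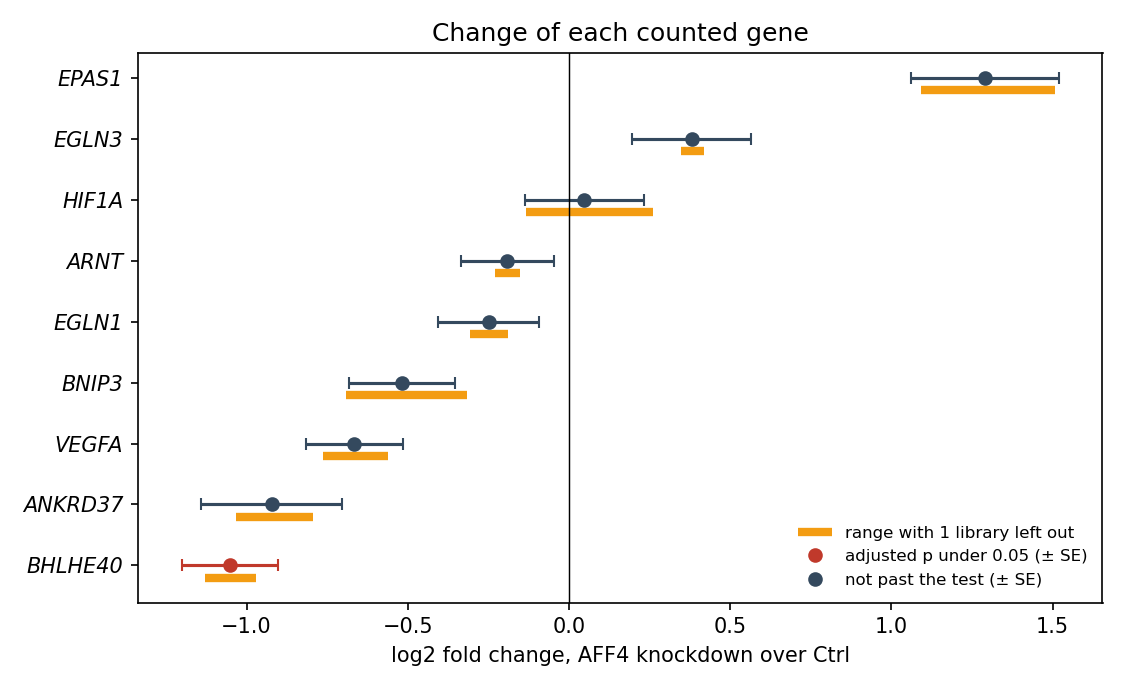
Log2 fold change (AFF4 knockdown over Ctrl) of the 9 counted genes with ± SE, above a bar for the range with 1 library left out. BHLHE40 at -1.05 passed the test, and HIF1A, the gene whose groups overlap, has the 1 bar that crosses no change.

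The order of levels per kilobase was led by target genes in both groups. BNIP3 stood at 31.0 ± 0.409 RPKM in the knockdown and 44.3 ± 8.08 RPKM in Ctrl, and BHLHE40 at 18.5 ± 0.664 RPKM in the knockdown and 38.4 ± 3.07 RPKM in Ctrl (SD, n = 2 each). In the knockdown HIF1A, ARNT, EGLN1, VEGFA, EGLN3, ANKRD37 and EPAS1 followed in that order, down from 15.1 to 1.48 RPKM. In Ctrl, HIF1A and ARNT were indistinguishable within their spread (14.6 ± 2.78 and 14.1 ± 0.50 RPKM), as were VEGFA and EGLN1 (9.08 ± 0.903 and 9.04 ± 0.507 RPKM), BNIP3 and BHLHE40 overlapped, and EPAS1 was the lowest. VEGFA has 14431 annotated exonic bases over its isoforms, which lowers its value on this scale. The lengths of the other genes are also unions over annotated isoforms. Orders and shares per kilobase between genes therefore depend on that annotation.

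**Figure D3:**
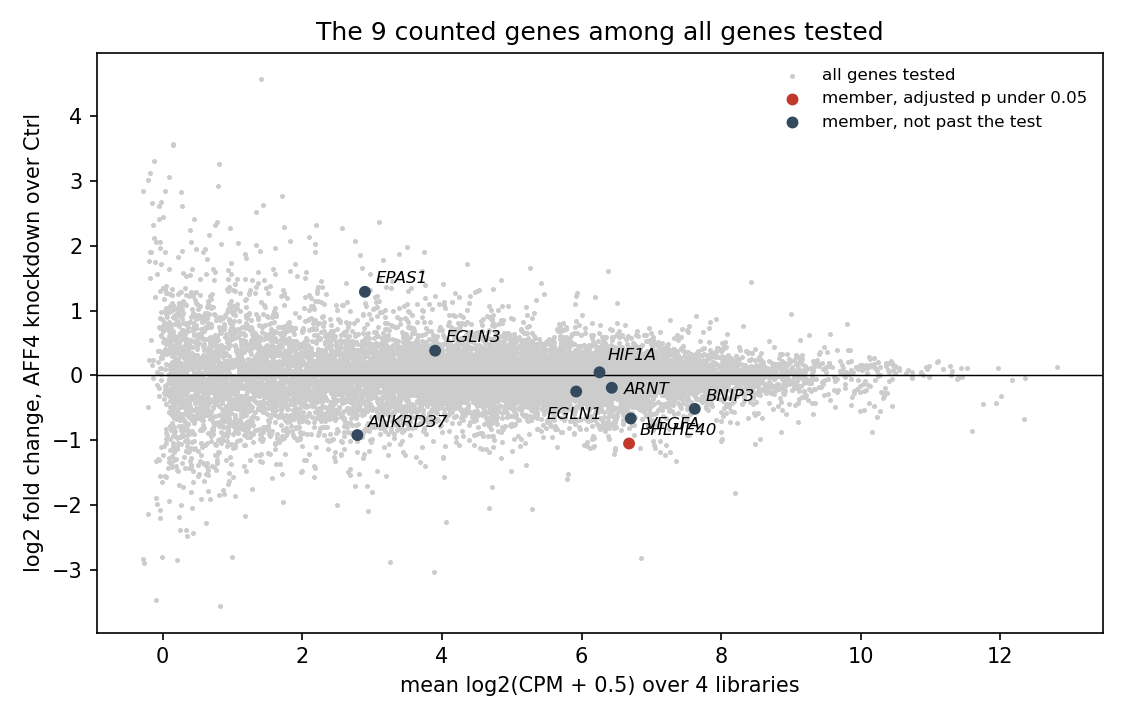
Log2 fold change (AFF4 knockdown over Ctrl) against mean log2(CPM + 0.5) for all 13572 tested genes in grey, with the 9 counted genes named. EPAS1 is the highest of the named genes at 1.29, and BHLHE40 at -1.05 is the lowest and the 1 past the test.

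The stretches before the starts of 3 targets that lay lower, and of EPAS1, which lay higher, show how the motifs are arranged. Each is the 250 bases upstream of the RefSeq start (GRCh38.p14), read 5′ to 3′ on the gene's strand, with each match to the core ACGTG or GCGTG on either strand in capitals. BHLHE40 is chr3:4979187-4979436 (plus strand), BNIP3 is chr10:131981924-131982173 (minus strand), ANKRD37 is chr4:185396591-185396840 (plus strand) and EPAS1 is chr2:46297157-46297406 (plus strand). The RefSeq starts differ from the GENCODE gene positions given above. By those positions the stretches of BHLHE40, ANKRD37 and EPAS1 lie inside the gene, and that of BNIP3 lies partly inside.
BHLHE40: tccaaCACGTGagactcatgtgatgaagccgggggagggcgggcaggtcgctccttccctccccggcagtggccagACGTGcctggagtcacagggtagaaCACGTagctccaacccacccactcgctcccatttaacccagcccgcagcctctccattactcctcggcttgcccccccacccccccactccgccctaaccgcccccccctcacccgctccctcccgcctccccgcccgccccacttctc
BNIP3: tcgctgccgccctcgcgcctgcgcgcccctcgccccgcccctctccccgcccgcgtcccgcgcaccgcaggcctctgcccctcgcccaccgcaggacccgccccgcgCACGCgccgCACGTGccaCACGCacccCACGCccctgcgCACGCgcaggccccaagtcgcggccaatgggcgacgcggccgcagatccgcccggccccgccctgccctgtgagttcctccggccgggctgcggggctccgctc
ANKRD37: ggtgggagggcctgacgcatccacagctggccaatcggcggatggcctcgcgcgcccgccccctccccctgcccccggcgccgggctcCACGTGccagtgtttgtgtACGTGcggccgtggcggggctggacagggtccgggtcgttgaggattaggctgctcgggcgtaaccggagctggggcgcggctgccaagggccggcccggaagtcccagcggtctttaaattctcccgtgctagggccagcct
EPAS1: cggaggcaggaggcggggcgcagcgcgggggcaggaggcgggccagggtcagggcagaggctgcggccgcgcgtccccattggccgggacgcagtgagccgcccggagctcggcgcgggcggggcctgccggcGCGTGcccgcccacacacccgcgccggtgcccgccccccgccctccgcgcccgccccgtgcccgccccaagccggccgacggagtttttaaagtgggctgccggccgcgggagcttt

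BHLHE40, BNIP3 and ANKRD37 each hold the palindrome CACGTG, an E-box that contains the core on both strands and that BHLHE40 itself can bind. It begins 245 bases before the start in BHLHE40, 134 in BNIP3 and 162 in ANKRD37. Counted on both strands, with CACGTG counted once on each, the core occurs 4 times in BHLHE40, 6 times in BNIP3, 3 times in ANKRD37 and 1 time in EPAS1. In BNIP3 the palindrome sits among 4 copies of CACGC (the core GCGTG on the other strand) that lie between 143 and 100 bases before the start. Of the other genes in the promoter table, EGLN1 holds 1 core, HIF1A holds 1 core at 1 of its 2 listed starts, EGLN2 holds a CACGTG at 1 of its 2 listed starts, and ARNT and EGLN3 hold none in this window. Of 35116 promoter windows of the same length, 43.2% hold the core and 6.34% hold CACGTG. Of the 21007 that belong to protein-coding genes in the count table, 49.6% hold the core and 7.43% hold CACGTG. The 4 windows shown have a GC content of 68.4% to 81.6%, and neither share is matched for GC content. A match is a description of the sequence and not evidence of binding.

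The oxygen-sensing machinery as a whole centred on no change. Among 20 tested genes of a list of HIF subunits, hydroxylases, VHL ligase components and HIF cofactors, 10 had positive and 10 negative log2 fold changes, with a median of 0.0049 against -0.0089 over all genes. In edgeR 0 passed, and at an unadjusted p under 0.05, 2 were higher and 0 lower, against 6.79% and 8.19% of all genes. In DESeq2 2 were higher, the member EPAS1 and CITED2, against 3.05% of all genes called, and 0 passed in limma-voom. After the GC correction 5 were higher and 2 lower, against 27.4% of all genes called. The VHL recognition subunit had 89.4 CPM in the knockdown and 84.0 CPM in Ctrl on average, and HIF1AN, the asparagine hydroxylase that blocks coactivator binding, had 533 CPM in the knockdown and 511 CPM in Ctrl. CITED2, a hypoxia-induced protein that competes with HIF for the coactivators CREBBP and EP300, had 269.2 and 269.2 CPM in the knockdown libraries and 156 and 182 CPM in the Ctrl libraries. Its log2 fold change was 0.67 ± 0.14 (SE; adjusted p = 0.0934 in edgeR and 0.0218 in DESeq2). UBE2D1, a ubiquitin-conjugating enzyme, had -0.45 ± 0.20 (SE; adjusted p = 0.349 in edgeR).

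Genes of collagen modification and oxidative protein folding, a well known HIF target group, had lower values in the knockdown in each tested case. All 8 of the 8 tested had a negative log2 fold change and knockdown libraries below both Ctrl libraries. Of all genes tested 23% had that separation, and the median of the list was -0.50. The list was chosen with earlier results of these data known, so setting it against that share is not a test. LOX and LOXL2 were scarce. LOX had 27 and 25 counts in the knockdown and 44 and 37 in Ctrl. LOXL2 had 11 and 9 counts in the knockdown and 14 and 11 in Ctrl. With the stricter filter 5 genes of the list were tested, all negative. Of the 8, 0 passed in edgeR, and 5 were lower at an unadjusted p under 0.05, against 8.19% of all genes. In DESeq2 2 were lower, against 3.05% of all genes called, and in limma-voom 0. After the GC correction 5 were lower and 0 higher, against 27.4% of all genes called. The endoplasmic reticulum oxidase ERO1A had 19.8 and 20.4 CPM in the knockdown libraries and 45.8 and 36.5 CPM in the Ctrl libraries, which is -1.03 ± 0.19 on the log2 scale (SE; adjusted p = 0.0718 in edgeR and 0.00108 in DESeq2). The collagen prolyl hydroxylase P4HA1 had 223 and 213 CPM in the knockdown and 407 and 315 CPM in Ctrl, which is -0.73 ± 0.16 on the log2 scale (SE; adjusted p = 0.101 in edgeR and 0.0162 in DESeq2). The lysyl hydroxylase PLOD1 had -0.59 ± 0.22 (SE; adjusted p = 0.272 in edgeR), and moved between -0.85 and -0.25 when single libraries were dropped. Under the same omissions the median of the list stayed between -0.57 and -0.47.

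A mixed list of other usual hypoxia targets, which includes EGLN1, EGLN3 and ANKRD37, had 19 of 23 tested genes on the negative side and a median of -0.38. SLC2A3, a high-affinity glucose transporter, fell to 267 and 269 CPM in the knockdown libraries, against 559.7 and 496 CPM in the Ctrl libraries (log2 fold change -0.98 ± 0.13, SE; edgeR adjusted p = 0.0394). It lost its call without knockdown 1 (adjusted p = 0.467), without knockdown 2 (0.603) and with the stricter filter (0.0573). It was the 1 gene of the list that passed, against 0.641% of all genes. At an unadjusted p under 0.05, 11 were lower and 0 higher, against 8.19% and 6.79% of all genes. In DESeq2 3 were lower and in limma-voom 1, against 3.05% and 0.678% of all genes called. After the GC correction 14 were lower and 2 higher, against 27.4% of all genes called. VLDLR, a lipoprotein receptor, had 1.93 and 2.14 CPM in the knockdown and 5.68 and 5.76 CPM in Ctrl and missed the threshold in edgeR, not in DESeq2 (-1.49 ± 0.23, SE; adjusted p = 0.0519 and 0.0175). DDIT4 (REDD1), an inhibitor of mTORC1, had 48.8 and 44.4 CPM in the knockdown and 74.2 and 125 CPM in Ctrl. The Ctrl libraries were far apart for DDIT4, and its log2 fold change of -1.09 ± 0.25 (SE) did not pass edgeR (adjusted p = 0.112), passed DESeq2 (0.00193) and moved between -1.42 and -0.67 when single libraries were dropped.

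The repressor and chromatin list had 9 of 13 tested genes on the negative side, a median of -0.19 and 1 call, BHLHE40, in edgeR and limma-voom. In DESeq2 2 were called higher, ETS1 and CITED2, and 1 lower, BHLHE40, against 3.05% of all genes called. CITED2 is also in the oxygen-sensing list. After the GC correction 2 were higher and 6 lower, against 27.4% of all genes called. ETS1, a transcription factor, had 774 and 754 CPM in the knockdown and 545 and 448 CPM in Ctrl, which is 0.62 ± 0.14 on the log2 scale (SE; adjusted p = 0.109 in edgeR and 0.0424 in DESeq2). Clock genes, among them targets that BHLHE40 is known to repress, were not on one side of Ctrl. Of 12 tested, 6 were positive and 6 negative, with a median of 0.06, and 0 passed edgeR, DESeq2 or limma-voom (0 at an unadjusted p under 0.05). After the GC correction 3 were higher and 0 lower, against 27.4% of all genes called. TEF, PER3 and ARNTL had log2 fold changes of 0.55 ± 0.24, 0.28 ± 0.15 and -0.28 ± 0.21 (SE; edgeR adjusted p = 0.342, 0.451 and 0.603), and TEF moved between 0.34 and 0.77 when single libraries were dropped. The median moved between -0.0030 and 0.16 with 1 library left out.

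Mitochondrial and mitophagy targets were mixed. Of 10 tested, 4 were positive and 6 negative, with a median of -0.14 that ranged from -0.29 to 0.04 with 1 library left out. In edgeR 0 passed, and 0 passed in DESeq2 or limma-voom. At an unadjusted p under 0.05, 1 was lower, BNIP3, and 0 higher, against 8.19% and 6.79% of all genes. After the GC correction 3 were higher and 3 lower, against 27.4% of all genes called. BNIP3L, the paralog of BNIP3 that clears mitochondria from maturing red cells, is outside the naming rule and was chosen after its values were seen. It averaged 213 CPM in the knockdown and 178 CPM in Ctrl (log2 fold change 0.26 ± 0.15, SE; edgeR adjusted p = 0.470; 0.15 to 0.39 when single libraries were dropped), the opposite side to BNIP3, and the difference between them was not tested. FAM162A and HIGD1A, mitochondrial proteins induced by hypoxia, had -0.36 ± 0.16 and 0.42 ± 0.18 (SE; edgeR adjusted p = 0.367 and 0.340). FAM162A moved between -0.51 and -0.18 and HIGD1A between 0.21 and 0.67 when single libraries were dropped.

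The secreted and cell surface list could be tested for 10 of its 20 genes, and 4 were at 0 in all libraries, among them CA9, a carbonic anhydrase often used as a hypoxia marker. EPO, the erythropoietin gene, averaged 0.0297 CPM in the knockdown and 0.0602 CPM in Ctrl. Of the tested genes 7 were negative, with a median of -0.44 that ranged from -0.67 to -0.12 with 1 library left out. In edgeR 0 passed, and at an unadjusted p under 0.05, 1 was higher and 3 lower, the member VEGFA among them, against 6.79% and 8.19% of all genes. In DESeq2 1 was lower, again VEGFA, against 3.05% of all genes called, and 0 passed in limma-voom. After the GC correction 1 was higher and 3 lower, against 27.4% of all genes called. VEGFB, a VEGFA relative, had -0.40 ± 0.21 and the transferrin receptor TFRC, an iron-uptake gene, had 0.39 ± 0.14 (SE; edgeR adjusted p = 0.438 and 0.263). Dropping single libraries moved VEGFB between -0.61 and -0.16 and TFRC between 0.25 and 0.55.

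**Figure D4:**
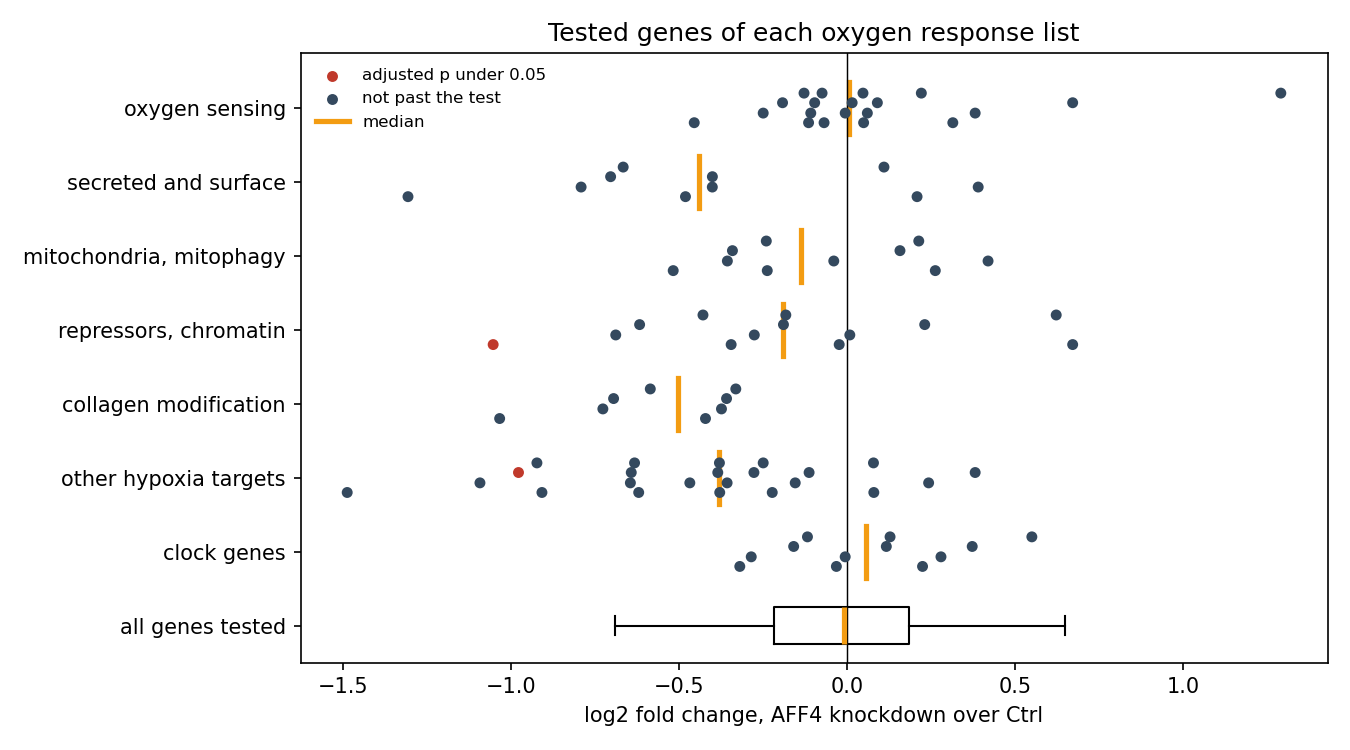
Log2 fold change (AFF4 knockdown over Ctrl) of the tested genes of 7 oxygen response lists, 1 point per gene with the median as a bar; the box at the bottom spans the quartiles of all tested genes, with whiskers at percentiles 5 and 95. The collagen modification list lies on the negative side, and oxygen sensing and clock genes centre near no change.

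The annotated antisense partners of BHLHE40 and HIF1A were scarce. BHLHE40-AS1 had 35 and 34 counts in the knockdown libraries and 35 and 17 in the Ctrl libraries (log2 fold change 0.37 ± 0.33, SE; edgeR adjusted p = 0.691), and its log2 fold change moved between 0.075 and 0.79 when single libraries were dropped. HIF1A-AS1 had 1 and 1 counts in the knockdown and 1 and 0 in Ctrl, and HIF1A-AS2 had 8 and 3 in the knockdown and 10 and 1 in Ctrl.

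Markers of the labelled erythroblast identity were present, with 12 of 12 erythroid markers tested and a summed level of 9343 to 9528 CPM in the knockdown and 12787 to 14378 CPM in Ctrl. The list was split, with 6 of 12 log2 fold changes positive, 6 negative and a median of -0.036. Most of the difference in the sum lay in the fetal globins HBG1 and HBG2, near-identical genes that can share reads, which with EPOR and ITGB3 were chosen after their values were seen. HBG1 fell to 2292 CPM in the knockdown, against 4165 CPM in Ctrl on average (log2 fold change -0.86 ± 0.12, SE; edgeR adjusted p = 0.0394). HBG2, the more abundant, had 4091 CPM in the knockdown and 6556 CPM in Ctrl on average and did not pass (-0.68 ± 0.12, SE; edgeR adjusted p = 0.0641). EPOR, the erythropoietin receptor, stood on the other side at 49.3 CPM in the knockdown and 29.3 CPM in Ctrl and did not pass (0.76 ± 0.27, SE; edgeR adjusted p = 0.251), with a range from 0.42 to 1.18 when single libraries were dropped. The megakaryocyte markers summed to 1521 to 1642 CPM in the knockdown and 1646 to 2475 CPM in Ctrl, with GP1BB at 0. Of 7 tested, 2 were positive and 5 negative, with a median of -0.55 that moved between -0.69 and -0.0076 when single libraries were dropped. The integrin ITGB3 fell to 342 CPM in the knockdown, against 627 CPM in Ctrl on average (-0.87 ± 0.12, SE; edgeR adjusted p = 0.0415), while ITGA2B, its partner and the most abundant of the list, overlapped between the groups. HBG1 and ITGB3 lost their calls without knockdown 1 (edgeR adjusted p = 0.231 and 0.626), without knockdown 2 (0.337 and 0.808) and with the stricter filter (0.0686 and 0.0654). Lymphocyte markers summed to 3.68 to 3.76 CPM in the knockdown and 2.57 to 3.55 CPM in Ctrl, with CD3D, CD3E and CD3G at 0. Monocyte markers summed to 111 to 116 CPM in the knockdown and 108 to 122 CPM in Ctrl. Of 4 tested, 2 were positive and 2 negative. CD14 had 0 and 0 counts in the knockdown libraries and 0 and 2 in the Ctrl libraries. Of the fibroblast and endothelial markers, COL1A2, COL3A1 and DCN were at 0, and PECAM1, which megakaryocytic cells also express, gave most of the 157 to 166 CPM in the knockdown and 179.7 to 195 CPM in Ctrl. The part of the erythroid and megakaryocytic differences in the values of the HIF genes was not tested.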

How the data were processed

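The authors deposited whole-number counts of reads per gene symbol for 4 libraries, with 0 other value columns. The submitters' processing notes name HISAT2 2.1.0, featureCounts 1.6.1 and fastp 0.13.1 and the build hg38. No source used here states the annotation, the strand setting or how multi-mapped and overlapping reads were treated. The labels' protocols describe oligo(dT) capture and strand-marking dUTP libraries.

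Counts were filtered with filterByExpr (minimum count 10, minimum total 15), scaled by TMM and tested with edgeR 4.0.16 in R 4.3.3 by the quasi-likelihood F test, with group as the only term and Benjamini-Hochberg adjustment over all 13572 genes. The SE is the absolute log2 fold change over the square root of F. Positions, exon lengths and GC content came from GENCODE v29 (GRCh38), with 25862 symbols matched by name and 154 through an older symbol. Promoter sequence came from RefSeq (GRCh38.p14), which held entries for all members but VEGFA.

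The members and gene lists were chosen with earlier results of these data known, and lists are described without a test. Named list genes are those called and otherwise up to 3 per list with at least 5 CPM and the smallest p. Some list genes, such as VHL, HIF1AN, EPO and CA9, were named outside this rule. Alternatives were other scalings, filters, DESeq2 1.42.0, limma-voom (limma 3.58.1), a replicate block, a GC correction, leaving out each library and a threshold of 0.01. Procedures were tested on simulated data. The simulation gave all libraries the same spread and no GC trend, so it does not cover the uneven spread and GC trend of these libraries.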

Additional observations from a re-analysis of the deposited data

How the results depend on the processing

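The direction of the fold change was the same in all alternatives run for 8 of the 9 counted genes, and HIF1A was the exception (-0.13 without Ctrl 2 and -0.011 without knockdown 1, in a range up to 0.26). UFSP2, the antisense neighbour of ANKRD37, also turned, to 0.083 without Ctrl 1, in a range down to -0.21. The groups of the other 8 members did not overlap, so dropping 1 library could hardly turn their direction. Their constant direction therefore adds little to that separation. The counts of calls moved far more. With no filter 734 genes and 4 of the members were called, with the stricter filter 5 and 0, in DESeq2 397 and 3, with the GC correction 3715 and 8, and at an adjusted p under 0.01 3 and 0, against 87 and 1. Leaving out 1 library gave between 46 and 6722 genes and between 0 and 8 members: dropping a Ctrl library leaves the spread to the close knockdown pair, and dropping a knockdown library leaves it to the distant Ctrl pair. EPAS1 was among the called members with no filter, in DESeq2, with either correction and without either Ctrl library. For the replicate block, labels do not say that a number marks a shared culture or day, and 2 pairs are too few to tell. Same-numbered libraries deviated together with r = 0.34 across genes. The replicate block gave 888 genes and 4 members (EPAS1 higher, ANKRD37, BHLHE40 and VEGFA lower), and the GC correction with the replicate block 4787 and 8. RLE, upper-quartile and library-size scaling and limma-voom each called BHLHE40 alone among the members. EGLN1, ARNT and EGLN3 were not called in edgeR as reported and were called after the GC correction.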
